A study of Mus musculus with 17 samples.

Results

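The transcription factors described here are 10 genes that mark or pattern the mesenchyme of the embryonic lung and other mesoderm-derived tissue: the forkhead genes Foxf1 and Foxf2, the T-box genes Tbx2, Tbx3, Tbx4 and Tbx5, the basic helix-loop-helix genes Tcf21 and Hand2, and the homeobox genes Meox1 and Meox2. They were named one by one as a set, and all 10 were found among the 55450 genes of the bulk expression table. Of these 10, 6 (Foxf1, Foxf2, Tbx3, Tbx4, Tbx5 and Tcf21) reached 1 TPM (transcripts scaled to a fixed total per library) in at least 2 of 14 bulk libraries and were tested alongside the other genes that did so, 15348 in all. The remaining 4 (Tbx2, Hand2, Meox1 and Meox2) stayed under that level and are described by their values alone.

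The cells were cancer cell lines derived from organs of female FVB/NJ mice that carry MMTV-PyMT, a transgene in which the mouse mammary tumor virus promoter drives polyoma middle T antigen in mammary epithelium. Lines were derived from the mammary fat pad (MFP, the primary tumor site), the lung, the lymph node (LN) and the bone marrow (BM) of 10 mice, and the labels name no drug treatment. Organ suspensions were grown for a month in conditions meant to favor cancer cells over fibroblasts and were then sorted for high EpCAM, an epithelial surface protein, with low or high CD44, an adhesion receptor (the labels give no CD44 class for MFP). Bulk RNA was sequenced from 2 libraries for each of MFP, LN CD44low, LN CD44high, BM CD44low, BM CD44high, lung CD44low and lung CD44high cells, replicates being clonal isolates from different mice, and 1 single-cell library each was made from lung CD44high, lung CD44low and LN CD44high cells.

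In the developing lung, epithelium that secretes Sonic hedgehog is wrapped by mesenchyme that answers through Gli factors, and Foxf1 is a well-known target of that signal. Foxf1 is required for lung vessels and mesenchyme, and its paralog Foxf2 acts in the mesenchyme of gut, palate and lung. Tbx4 and Tbx5 act together in lung bud outgrowth and branching through Fgf10, the ligand made by distal mesenchyme, whereas Tbx2 and Tbx3 are repressors that keep mesenchymal cells dividing. Tcf21 marks lung and kidney mesenchyme and fibroblast precursors, Meox1 and Meox2 act in somites, muscle and vessels, and Hand2 is best known from heart and limb.

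The labelled epithelial identity did not show in the RNA of the lung-derived bulk libraries. Epcam was listed at 0 TPM in both lung CD44low libraries and at 0.23 and 0.86 TPM in lung CD44high cells, against 725.37 to 836.53 TPM in MFP cells. The summed level of 15 epithelial markers was 2.43 and 2.67 TPM in lung CD44low cells and 16.2 and 87.7 TPM in lung CD44high cells, while it ranged from 2290 to 8970 TPM in the 10 MFP, LN and BM libraries. Against MFP, 13 of 13 tested epithelial markers were called lower in each lung-derived group. In lung CD44low cells 10 of the 15, Epcam, Cdh1 and Krt8 among them, were listed at 0 in both libraries. Fibroblast markers (12 genes) summed to 7470 and 10000 TPM in lung CD44low cells and to 3900 and 1120 TPM in lung CD44high cells, against 119 to 799 TPM elsewhere, and smooth muscle markers (7 genes) summed to 756 and 822 TPM in lung CD44low cells and to at most 9.14 TPM in the other 12 libraries. Of 11 fibroblast markers tested, 11 were called higher than in MFP in lung CD44low and 5 in lung CD44high cells, and 9 were called lower in lung CD44high than in lung CD44low cells, 4 of the 11 having entered the test through lung CD44low cells alone. Their median log2 difference from MFP was 5.95 in lung CD44low and 0.66 in lung CD44high cells. Col1a2, Thy1 and Fap were listed at 0 in both lung CD44high libraries, and Fap in both lung CD44low libraries as well. Endothelial markers (7 genes) summed to at most 0.3 TPM in any library, and 8 cycling genes to 3.79 to 57 TPM in lung-derived cells and 481 to 4960 TPM elsewhere. In lung CD44low cells high fibroblast and smooth muscle markers went together with high levels of the transcription factors below. In lung CD44high cells fibroblast markers and Foxf2 were above MFP, whereas Foxf1 and Tbx3 were below it. The part of these markers in those results was not tested. In bulk RNA, fewer cells of a type and less RNA per cell cannot be told apart.

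Sequences just before the start sites of members that were high in lung-derived cells are shown where the reference sequences hold them, in lower case with motif letters in capitals, 5′ to 3′ on the gene's own strand. The sequences are RefSeq's for GRCm38.p6 (mm10). Short motifs were searched on both strands and set beside their share among 32851 promoters of the same length. The GC box, spelled GGGCGG, was present in 35.7% of promoters. The TATA box (TATAAA) was present in 13.6% and the CCAAT box in 37.4%. A forkhead motif, TGTTTAC, was present in 3.65%, and a T-box motif, AGGTGTGA, in 1.28%. Of the 10 members, 5 had a window in the reference (Foxf2, Tbx4, Tcf21, Hand2 and Meox2). That of Fendrr, the divergent non-coding RNA beside Foxf1, is printed because it lies in the stretch of 1275 bases between both genes. The windows are those of Foxf2 (chr13:31625566-31625815, plus strand, directly before the gene, with 227 of its 250 bases in an exon of the divergent non-coding gene 1700018A04Rik), Fendrr (chr8:121083111-121083360, minus strand), Tbx4 (chr11:85896515-85896764, plus strand, in an intron of the longest Tbx4 gene model) and Tcf21 (chr10:22820175-22820393, minus strand, in an intron of the antisense gene Gm10824).
Foxf2: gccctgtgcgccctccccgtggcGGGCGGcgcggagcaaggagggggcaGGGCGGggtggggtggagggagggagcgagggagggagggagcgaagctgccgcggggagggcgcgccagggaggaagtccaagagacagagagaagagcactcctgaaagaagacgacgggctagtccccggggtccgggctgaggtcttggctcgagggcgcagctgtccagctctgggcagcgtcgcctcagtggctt
Fendrr: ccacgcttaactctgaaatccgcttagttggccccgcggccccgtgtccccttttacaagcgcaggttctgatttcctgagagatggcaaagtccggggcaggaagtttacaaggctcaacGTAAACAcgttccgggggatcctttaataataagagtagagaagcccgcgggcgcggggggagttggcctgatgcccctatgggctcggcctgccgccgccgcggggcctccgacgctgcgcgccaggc
Tbx4: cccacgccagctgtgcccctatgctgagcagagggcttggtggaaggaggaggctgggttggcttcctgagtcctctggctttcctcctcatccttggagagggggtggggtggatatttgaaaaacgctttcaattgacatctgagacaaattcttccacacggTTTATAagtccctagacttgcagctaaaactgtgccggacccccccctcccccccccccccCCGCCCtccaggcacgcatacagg
Tcf21: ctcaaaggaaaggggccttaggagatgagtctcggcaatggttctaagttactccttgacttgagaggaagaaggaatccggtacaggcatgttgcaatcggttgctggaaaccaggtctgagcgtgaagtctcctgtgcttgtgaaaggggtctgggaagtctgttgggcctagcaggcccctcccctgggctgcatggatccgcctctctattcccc
The Foxf2 window held 2 GC boxes, the Fendrr window the forkhead letters on its other strand, and the Tbx4 window a TATA box and a GC box, both on the other strand. No motif was found in the Tcf21 window. Foxf2 had 71.3% G and C and 27 CpG pairs in its whole promoter window, which runs on past the start, where the median promoter had 52.7% and 7. Tcf21 (53.3%, 8 CpG) and Tbx4 (59.0%, 8 CpG) were nearer the median. A match is only a run of letters, and no binding was measured.

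Of the 140 values of the 10 members in the 14 bulk libraries, 91 were listed at 0. The summed level of the members was 164 and 178 TPM in lung CD44low cells, at most 14 TPM in lung CD44high cells, 7.34 and 3.85 TPM in MFP cells and 0.5 to 4.59 TPM in the LN- and BM-derived cells. Both lung CD44low libraries lay above the 12 others for 8 of the 10 members, the 6 tested ones and Tbx2 and Meox1, which were not tested. Among all genes tested 16.1% (2467 of 15348) had that order, a share over genes that passed the filter on low values, which itself forces the order for Tbx4, Tbx5 and Tcf21. By group means 9 of the 10 were highest in lung CD44low cells, where 26.4% of tested genes had their highest mean, and the exception was Meox2. The 9 include Tbx2, Meox1 and Hand2, which were not tested, Hand2 by 0.03 TPM in replicate 2 alone. For Tbx4, Tbx5 and Tcf21 the filter fixed this too, so the shares are not of like sets.

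**Figure D1:**
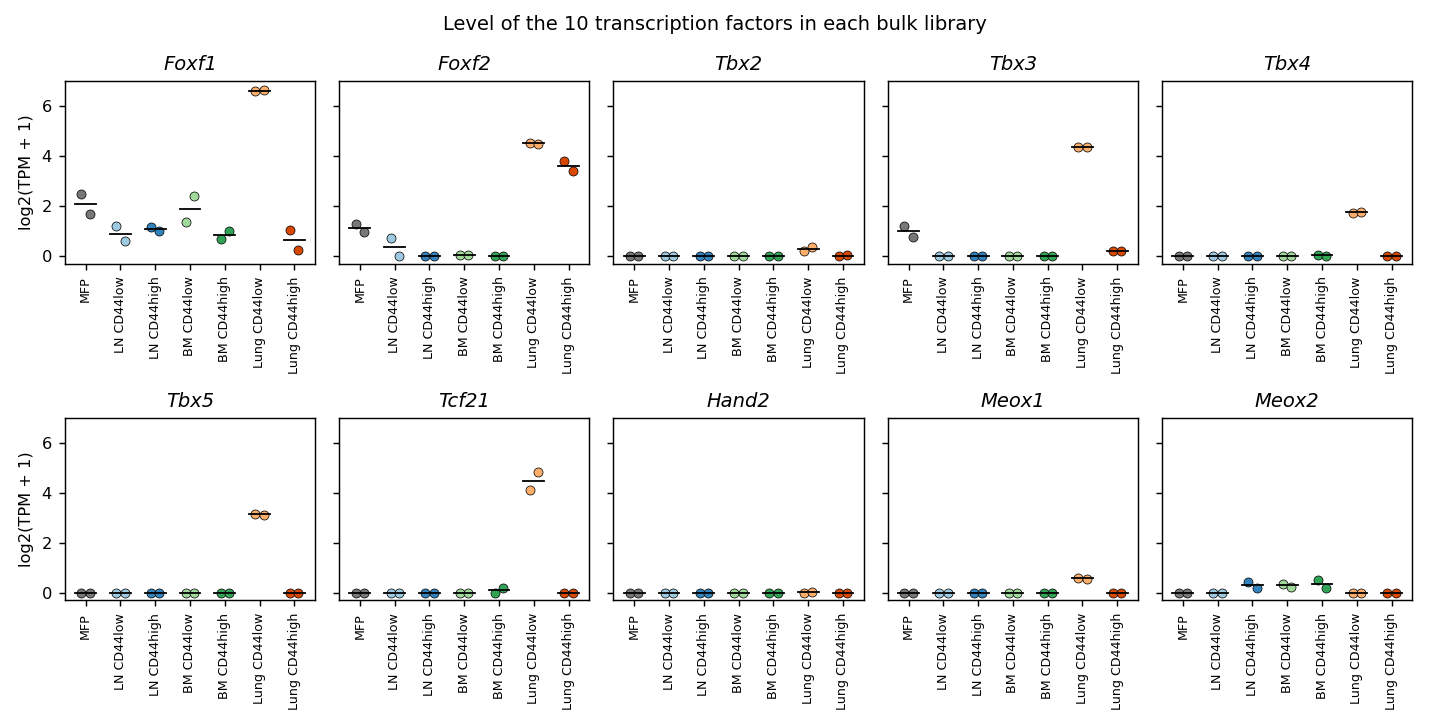
Level of each of the 10 transcription factors as log2(TPM + 1) (vertical axis) in the 7 bulk groups (horizontal axis), with 1 point per library and a bar at the mean of 2. Foxf1, Foxf2, Tbx3, Tbx4, Tbx5 and Tcf21 stand highest in lung CD44low cells, Foxf2 is the one that also stands high in lung CD44high cells, and Meox2 is above 0 in LN CD44high and BM cells only.

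Foxf1 (chr8:121084386-121088144, plus strand) was the most abundant member. Its level was 94.85 and 98.46 TPM in lung CD44low cells, 4.59 and 2.20 TPM in MFP cells and 1.08 and 0.19 TPM in lung CD44high cells. It stood at 1.30 and 0.50 TPM in LN CD44low, 1.23 and 1.01 TPM in LN CD44high, 1.55 and 4.36 TPM in BM CD44low and 0.59 and 1.03 TPM in BM CD44high cells. The lung CD44low libraries did not overlap any other library, MFP overlapped BM CD44low cells, and the ranges of the 4 remaining groups overlapped one another. Compared with MFP, Foxf1 was higher in lung CD44low cells by 4.53 ± 0.44 on the log2(TPM + 1) scale (SE, limma adjusted p = 2.51e-05). It was lower in lung CD44high than in lung CD44low cells, the log2 difference being -5.96 ± 0.44 (SE, limma adjusted p = 5e-06). In lung CD44high cells it was lower than in MFP by a difference of -1.43 ± 0.44 (SE, limma adjusted p = 0.0304), which did not reach the fold minimum used for a call, a log2 difference over 2.

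Foxf2 (chr13:31625816-31631403, plus strand) was the member that both lung-derived lines held. It was measured at 22.25 and 21.62 TPM in lung CD44low cells, 12.78 and 9.50 TPM in lung CD44high cells and 1.44 and 0.94 TPM in MFP cells. In LN and BM cells it was at 0.64 TPM in LN CD44low replicate 1, at 0.03 and 0.04 TPM in BM CD44low cells, and listed at 0 in the other 5 libraries. All 4 lung libraries lay above the 10 others, and the lung CD44low libraries above the lung CD44high ones. Foxf2 rose against MFP by 3.40 ± 0.27 in lung CD44low cells (SE, limma adjusted p = 5.7e-06) and by 2.47 ± 0.27 in lung CD44high cells (SE, limma adjusted p = 9.23e-05). The difference of lung CD44high from lung CD44low cells was -0.93 ± 0.27 (SE, limma adjusted p = 0.0275), short of the fold minimum. Over the 4 lung libraries against the 8 LN and BM libraries the difference was 3.95 ± 0.17 (SE, limma adjusted p = 4.43e-08).

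Foxf1 and Foxf2 are paralogs, and theirs was the single pair among the 10 members whose transcripts shared runs of 31 bases. They shared 11 such runs, of 2385 distinct ones in Foxf1 and 2328 in Foxf2. All lie in this stretch of 41 bases in the coding part of the first exon, at chr8:121084657-121084697 in Foxf1 and chr13:31626494-31626534 in Foxf2 (plus strands), shown since reads confined to it could not be assigned to one paralog:
Foxf1 and Foxf2: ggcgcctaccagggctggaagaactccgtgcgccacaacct
The miRNA gene model Gm27516, antisense in the same exon of Foxf2 and covering this stretch, was itself listed at 17.15 and 18.92 TPM in lung CD44low cells, 4.23 and 0 TPM in lung CD44high cells and 0 elsewhere. Foxf1 was below both MFP libraries in the lung CD44high libraries in which Foxf2 stood at 12.78 and 9.50 TPM, so the paralogs differed there in level.

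Tbx3 (chr5:119670669-119684724, plus strand) was at 19.80 and 19.51 TPM in lung CD44low cells, at 1.31 and 0.71 TPM in MFP cells and at 0.15 and 0.16 TPM in lung CD44high cells. It was listed at 0 in all 8 LN and BM libraries. No 2 of the groups with a value overlapped. Tbx3 rose against MFP by 3.38 ± 0.18 in lung CD44low cells (SE, limma adjusted p = 2.73e-07), and the difference of lung CD44high from lung CD44low cells was -4.16 ± 0.18 (SE, limma adjusted p = 8.77e-08). Its difference from MFP in lung CD44high cells, -0.78 ± 0.18 (SE, limma adjusted p = 0.00692), did not reach the fold minimum.

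Tbx5 (chr5:119832668-119885219, plus strand) was at 7.99 and 7.58 TPM in lung CD44low cells and listed at 0 in the other 12 libraries. Tbx4 (chr11:85886422-85916097, plus strand) was at 2.31 and 2.41 TPM in lung CD44low cells, at 0.04 TPM in BM CD44high replicate 1 and listed at 0 in the rest. Its log2(TPM + 1) difference of lung CD44low cells from MFP, 1.75, was under the fold minimum, so it was not called, whereas with a pseudocount of 0.1 the difference was 4.62 and it was called. Both genes entered the test through the lung CD44low libraries alone and had to differ there, so no p is given. MFP was listed at 0 for both genes, so such a difference depends on the pseudocount and no ratio of levels is given.

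Tbx2 (chr11:85832551-85841948, plus strand) was at 0.14 and 0.30 TPM in lung CD44low cells, at 0.03 TPM in lung CD44high replicate 2 and at 0 elsewhere. The 4 T-box genes lie as pairs on both chromosomes: Tbx3 and Tbx5 are 148 kb apart on chromosome 5, and Tbx2 and Tbx4 are 44.5 kb apart on chromosome 11. In lung CD44low cells the levels of the chromosome 5 pair were above those of the chromosome 11 pair in both libraries, in TPM, which is scaled by transcript length.

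Tcf21 (chr10:22817281-22820174, minus strand) was at 16.24 and 27.64 TPM in lung CD44low cells, at 0.15 TPM in BM CD44high replicate 2 and listed at 0 in the other 11 libraries, both MFP and both lung CD44high libraries included. It too entered the test through the lung CD44low libraries alone, so no p is given. The replicates of lung CD44low cells differed more for Tcf21 than for Tbx3, Tbx4 or Tbx5. Hand2 (chr8:57320983-57324633, plus strand), the other basic helix-loop-helix factor, was at 0.03 TPM in lung CD44low replicate 2 and listed at 0 in the other 13 libraries.

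Meox1 (chr11:101877510-101894374, minus strand) was at 0.51 and 0.47 TPM in lung CD44low cells and listed at 0 elsewhere. Meox2 (chr12:37108540-37179534, plus strand) followed another order. It was at 0.36 and 0.13 TPM in LN CD44high, 0.26 and 0.19 TPM in BM CD44low and 0.44 and 0.15 TPM in BM CD44high cells, and listed at 0 in MFP, LN CD44low and all lung libraries. The ranges of these 3 groups overlapped, and no test was made on levels this low.

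Against MFP, 5 of the 6 members tested were called higher in lung CD44low cells (Foxf1, Foxf2, Tbx3, Tbx5 and Tcf21), where 18.8% of all genes tested were called and 11.2% were called higher. Tbx4, Tbx5 and Tcf21 passed the filter on low values through the lung CD44low libraries, so they had to differ there and the count is a description. Without either lung CD44low library, 3 members were called, because Tbx4, Tbx5 and Tcf21 then no longer reached 1 TPM in 2 libraries. In lung CD44high cells 1 member, Foxf2, was called higher than in MFP, with a background of 13.5% of genes called and 5.42% called higher. By adjusted p alone 3 members passed there, Foxf1 and Tbx3 with values under MFP, where 36.1% of all genes did. With a pseudocount of 0.1 in place of 1 the count called there was 3, and 21.4% of all genes were called. Both comparisons rest on the same 2 MFP libraries.

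**Figure D2:**
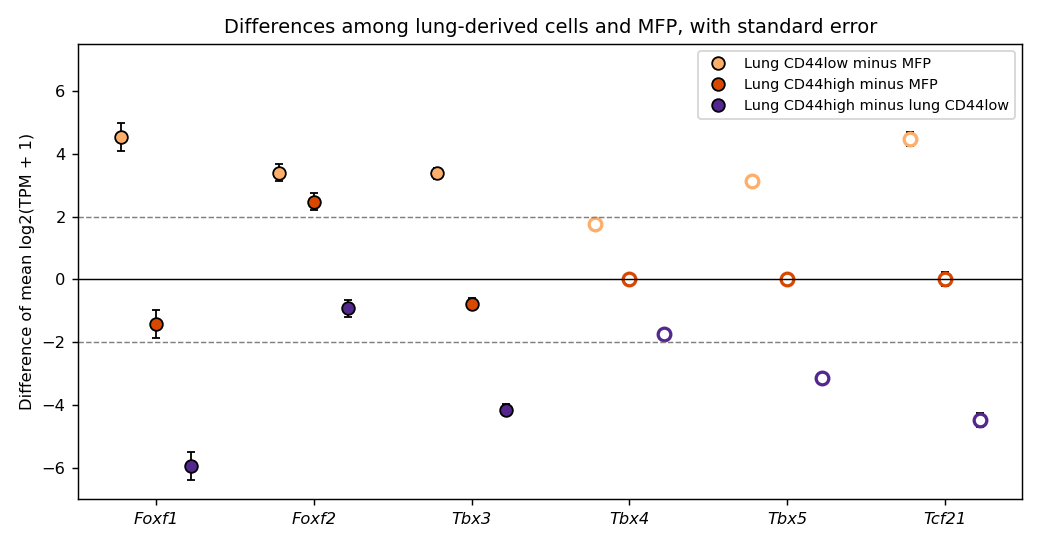
Difference of mean log2(TPM + 1) (vertical axis) for the 6 tested factors in 3 comparisons, with bars for the standard error, dashed lines at the fold minimum of 2 and open circles where a compared group is listed at 0. In lung CD44low cells against MFP all but Tbx4 lie above 2, and Foxf2 is the one factor above 2 in lung CD44high cells against MFP.

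Between the lung lines, 4 members (Foxf1, Tbx3, Tbx5 and Tcf21) were called lower in CD44high than in CD44low cells, where 11.3% of genes were called and 8.80% were called lower. Of the 4, Tbx5 and Tcf21 entered the test through lung CD44low cells alone and had to differ, so nothing is read from their calls. Without either lung CD44low library 2 were called, Tbx5 and Tcf21 having dropped from the test. The fall of fibroblast and smooth muscle markers between the same libraries is given above. For the lung-derived libraries as a whole against LN and BM, 4 members were called higher (Foxf1, Foxf2, Tbx3 and Tcf21) with a background of 12.7% of genes called and 7.13% called higher. Except for Foxf2, these differences averaged a high and a low group. For Foxf1, at 2.45 ± 0.27 (SE, limma adjusted p = 3.8e-05), lung CD44high cells at 1.08 and 0.19 TPM were within or below the range of LN and BM cells, 0.50 to 4.36 TPM. Tbx3 at 0.15 and 0.16 TPM and Tcf21 at 0 in lung CD44high cells were likewise far below lung CD44low cells.

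The difference between CD44high and CD44low cells was itself compared between lung and the mean of LN and BM. It was larger in size in lung for Foxf1, with a difference of differences of -5.53 ± 0.54 (SE, limma adjusted p = 5.22e-05), and for Tbx3, at -4.16 ± 0.22 (SE, limma adjusted p = 6.04e-07). Tbx5 and Tcf21 were called too, which the filter on low values fixed for both, and the background was 9.59% of genes called and 6.57% called lower. For Foxf2 the same term was -0.73 ± 0.33 (SE, limma adjusted p = 0.157). Without either lung CD44low library 2 members were called.

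In LN and BM cells no member was called against MFP by limma. The share of all genes called was 4.79% in LN CD44low, 6.12% in LN CD44high, 7.16% in BM CD44low and 7.67% in BM CD44high cells. At an unadjusted p under 0.05 with no fold minimum, 3, 3, 2 and 3 of the 6 members passed in these groups, where 26.6%, 36.0%, 35.0% and 38.6% of all genes did. At an adjusted p under 0.05 with no fold minimum 1, 2, 2 and 2 members passed, where 14%, 23.8%, 23.2% and 27% of all genes did. Tbx3 was 0.99 ± 0.18 (SE) lower on the log2(TPM + 1) scale in each, with limma adjusted p from 0.00308 to 0.00474, its MFP libraries being at 1.31 and 0.71 TPM and the others at 0. Foxf2 was lower by a difference of -1.12 ± 0.27 in LN CD44high (SE, limma adjusted p = 0.0149) and in BM CD44high cells (SE, limma adjusted p = 0.0136), and by -1.07 ± 0.27 in BM CD44low cells (SE, limma adjusted p = 0.0188). These 4 comparisons share the MFP libraries. Between CD44high and CD44low cells no member was called within LN or BM, where 0.208% and 0.104% of all genes (32 and 16) were called, and no member (LN) and 1 member (BM, Foxf1) passed at an unadjusted p under 0.05, as did 10.1% and 7.40% of all genes. These backgrounds rest on single libraries: in BM 972 genes were called without BM CD44low replicate 1, 7 without BM CD44low replicate 2 and 27 without either LN CD44low library. In LN 12 genes were called without LN CD44high replicate 1, 72 without LN CD44low replicate 1 and 100 without LN CD44low replicate 2.

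Single cells were profiled by ddSeq, a droplet method that reads transcript 3′ ends, with 1 library per group, so no test between them was possible. After keeping cells with more than 250 genes and under 10% of counts in mitochondrial genes, 1236 of 3623 barcodes remained in lung CD44high, 348 of 2808 in lung CD44low and 2562 of 3297 in LN CD44high cells. The median depth was 557, 4011 and 585 counts per cell in that order, and the summed depth 2210623, 2220759 and 5287425 counts. Intervals below are exact 95% Poisson or binomial intervals and cover counting error only. Barcodes were deposited as serial names, so barcodes shared between libraries could not be counted, but no kept cell of one library had a profile identical to that of a cell in another.

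Foxf1 had 148 counts in lung CD44low cells, 0.666 per 10000 (95% interval 0.563 to 0.783), against 6 counts or 0.0271 (0.00996 to 0.0591) in lung CD44high and 29 counts or 0.0548 (0.0367 to 0.0788) in LN CD44high cells. The lung CD44low library stood apart from the other 2, which overlapped in their intervals, the same high group as in bulk RNA. A Foxf1 count was found in 21.8% of lung CD44low cells (17.6 to 26.6%), 0.243% of lung CD44high and 1.01% of LN CD44high cells. After thinning each cell to 500 counts these shares were 2.23%, 0.105% and 0.21%, among 314, 948 and 1903 cells deep enough.

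Foxf2 reversed its order between the lung lines. It had 158 counts in lung CD44high cells, 0.715 per 10000 (0.608 to 0.835), 58 counts in lung CD44low cells, 0.261 (0.198 to 0.338), and 4 counts in LN CD44high cells, 0.00757 (0.00206 to 0.0194). The intervals of both lung libraries did not overlap, with lung CD44high above, whereas in bulk RNA the CD44low libraries were above. The share of cells with a count was 5.58% in lung CD44high and 10.6% in the deeper lung CD44low library, and 1.90% (1.13 to 2.98%) and 0.955% (0.197 to 2.77%) after thinning, where the intervals overlapped. In the LN library the share was 0.156%. The cause of the reversed order was not tested.

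Tbx3 had 57 counts in lung CD44low cells, 0.257 per 10000 (0.194 to 0.333), 9 in lung CD44high cells, 0.0407 (0.0186 to 0.0773), and 1 in LN CD44high cells, 0.00189. Tbx5 had 21 counts in lung CD44low cells, 0.0946 per 10000 (0.0585 to 0.145), 2 in LN CD44high cells and 0 in lung CD44high cells, where a count of 0, taken as under 3 counts, allows up to 0.0136 per 10000. Tbx4 had 5 counts in lung CD44low cells, 0.0225 per 10000 (0.00731 to 0.0525), and 0 in the other 2 libraries. For these 3 T-box genes the lung CD44low library was highest, as in bulk RNA. For Tbx4, with 5 counts, its interval reached below the limit for a count of 0 in lung CD44high cells, so these libraries were not apart.

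Tcf21 had 0 counts in all 3 libraries, also over all barcodes, which allows up to 0.0135 per 10000 in the kept lung CD44low cells. In bulk RNA of lung CD44low cells it stood at 16.24 and 27.64 TPM. Of the 3120 genes with 10 to 40 TPM in both lung CD44low bulk libraries and a row in the single-cell matrix, 33 (1.06%) had 0 counts over all lung CD44low barcodes, and the median gene had 84. Tcf21 was among the 33. Tbx2, Hand2, Meox1 and Meox2 also had 0 counts in each library, as members under 1 TPM in bulk RNA.

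**Figure D3:**
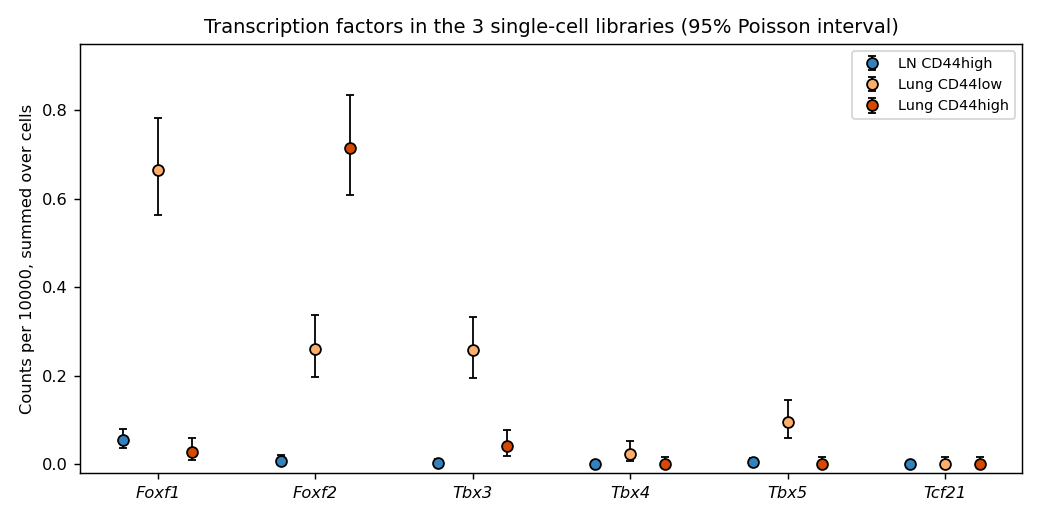
Counts per 10000 summed over the kept cells of each single-cell library (vertical axis) for the 6 factors tested in bulk RNA, with exact 95% Poisson intervals. Foxf1, Tbx3 and Tbx5 are highest in lung CD44low cells, Foxf2 is highest in lung CD44high cells, and Tcf21 is at 0 in all 3 libraries.

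Counts of different members met in the same lung CD44low cells. In that library 86 cells had a count of 1 member, 28 of 2, 8 of 3 and 1 of 4, so that 37 cells (10.6%) held 2 or more. These cells were deep, with a median of 14494 counts in those with 2 members against 1162 in those with none, and the share at equal depth for any member was 4.14% in lung CD44low, 2.32% in lung CD44high and 0.21% in LN CD44high cells after thinning to 500 counts (35.3%, 6.31% and 1.29% before). In lung CD44high cells 2 cells held 2 members. In LN CD44high cells no cell held more than 1 of them.

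The cells of each library were also divided by whether they held an epithelial marker count. A count of at least 1 of 15 epithelial markers was present in 79 of the 348 lung CD44low cells, in which Foxf1 was at 0.671 per 10000 (0.501 to 0.880), against 0.664 (0.538 to 0.811) in the 269 cells without. In lung CD44high cells Foxf2 was at 0.788 per 10000 (0.648 to 0.949) in the 273 cells with an epithelial marker count and 0.586 (0.430 to 0.779) in the 963 without. The intervals overlapped in both cases, and the cells with a marker count were deeper in both libraries. Over all kept cells epithelial markers summed to 1.63 per 10000 in lung CD44low, 4.38 in lung CD44high and 11.1 in LN CD44high cells, and fibroblast markers to 84.0, 38.0 and 5.38, of which Fn1 alone gave 54.2, 35.0 and 4.58. The 8 cycling genes summed to 4.0, 13.4 and 14.8 per 10000 in that order. Lung CD44high and LN CD44high cells thus lay closer in cycling genes than in bulk RNA. In lung CD44high cells Col1a2, Col3a1, Dcn, Lum and Thy1 had 0 counts. In lung CD44low cells Dcn had 22 counts and Lum 0, where bulk RNA had 4090.71 and 4315.33 TPM of Dcn and 362.28 and 217.49 TPM of Lum. Epcam had 0 counts in lung CD44low, 3 in lung CD44high and 936 in LN CD44high cells.

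Genes beside the members were compared next, the nearest 2 protein-coding genes on each side by the GENCODE vM21 annotation, 33 genes that are no member, of which 26 were tested. In lung CD44low cells against MFP 4 were called higher and 2 lower, near the share of all genes tested (11.2% called higher and 18.8% called). Those higher were Foxc2, 28.0 kb from Foxf1 and itself a forkhead factor of mesoderm (4.78 and 4.51 TPM in lung CD44low, 0.05 and 0.12 TPM in MFP cells), Foxq1, 64.8 kb from Foxf2 (7.15 and 6.29 against 0.43 and 1.11 TPM), and Scrg1 and Sap30 beside Hand2. In BM CD44low replicate 2 Foxc2 was at 10.93 TPM and Sap30 at 58.05 TPM, above their lung CD44low levels, and Scrg1 was at 7.91 to 15.13 TPM in BM cells, so these 3 were not high in lung CD44low cells alone. Brip1 and Ints2, beside Tbx4, were called lower in both lung-derived groups. Mthfsd, 3.48 kb from Foxf1, was at 31.79 and 26.19 TPM in lung CD44low cells and 88.18 and 63.49 TPM in MFP cells, and was not called.

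**Figure D4:**
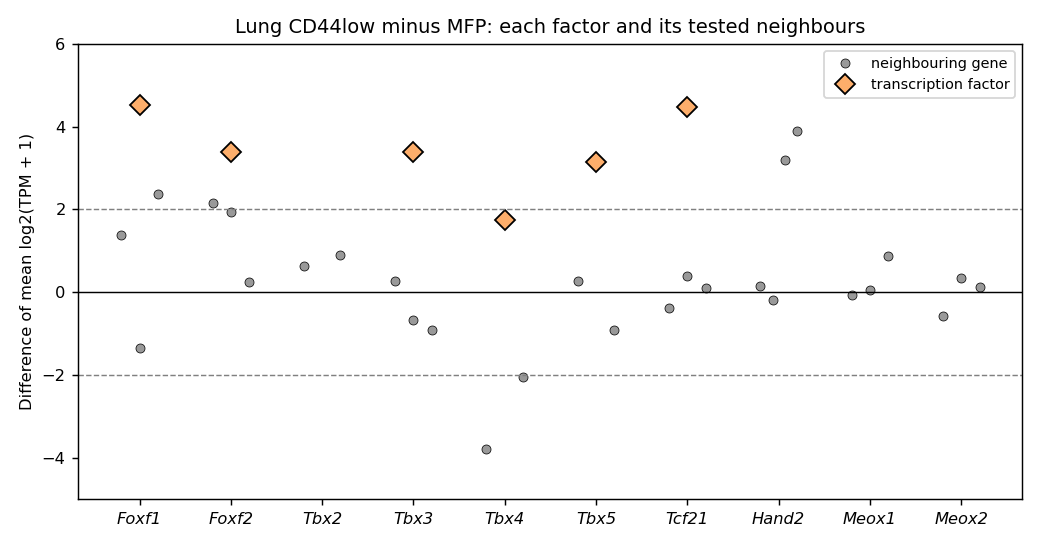
Difference of mean log2(TPM + 1) between lung CD44low and MFP cells (vertical axis) for the 6 tested factors (diamonds) and for the tested protein-coding neighbours of all 10 (grey circles), with dashed lines at the fold minimum. Neighbours shared by 2 factors are drawn beside both, and most neighbours lie between the dashed lines while 5 of the 6 factors lie above them.

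Non-coding genes that start beside a member were compared with it, and some but not all had its order of libraries. Fendrr, which is transcribed away from Foxf1, was at 2.54 and 1.93 TPM in lung CD44low cells and at most 1.10 TPM in the other 12 libraries, so that it entered the test through lung CD44low cells alone and was not called. It had 27 counts in the lung CD44low single-cell library, 1 in lung CD44high and 8 in LN CD44high cells. The non-coding gene 1700018A04Rik, 23 bases from Foxf2, was at 1.79 and 1.78 TPM in lung CD44low cells and 0.91 and 2.00 TPM in lung CD44high cells, and at most 0.17 TPM elsewhere, the 2 groups in which Foxf2 was high. Gm43050, 747 bases from Tbx5, was at 5.26 and 3.65 TPM in lung CD44low cells and at 0 in all other libraries. By contrast Tbx3os1 and Tbx3os2, beside Tbx3, and Gm10824, antisense to Tcf21, were listed at 0 in lung CD44low cells, where Tbx3 and Tcf21 were high. The gene 2610027K06Rik, beside Tbx2, was at 0.15 TPM in lung CD44low replicate 2, 0.24 TPM in lung CD44high replicate 1 and 0 elsewhere. The bulk protocol does not mark strand, so exonic reads of overlapping antisense genes cannot be told apart. Such exonic overlap was present for Tbx3 (115 bases with Tbx3os1) and Hand2 (461 bases with Hand2os1), and for Foxf1 and Foxf2 with a miRNA gene model each (98 bases).

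Genes whose level followed each member most closely over the 14 libraries are given by Pearson's r of log2(TPM + 1), as a description, since the libraries share groups and a value high in 2 libraries alone yields a high r. For Foxf1 they included Map1a (r = 0.983) and Dio2 (0.976). For Foxf2 they were Ptprm (0.991), the axon guidance ligand Slit2 (0.990) and Gabarapl1 (0.990). Slit2 was at 172.38 and 253.92 TPM in lung CD44low and 49.86 and 26.83 TPM in lung CD44high cells. For Tbx3 they were Wipf1 (0.998), Dpysl3 (0.997) and Thbd (0.997), for Tcf21 C1ql3 (1.0), Slc2a10 (1.0) and Hsf4 (0.999). For Tbx4 (Mgl2, Cers4 and Klhl6) and Tbx5 (Gm12963, Cavin3 and AC148019.2) r rounded to 1.0, and 236 and 224 genes had r over 0.99. Among members, r was 0.999 for Tbx4 and Tbx5 and 0.655 for Foxf1 and Foxf2.

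The hedgehog pathway list, which holds the signal upstream of Foxf1, had 9 of 14 genes tested. In lung CD44low cells 4 were called higher than in MFP (Gli2, Gli3, Boc and Gas1) and in lung CD44high cells 3 (Cdon, Boc and Gas1). The median log2 difference was 1.82 and 1.18, where the medians over all tested genes were 0.00 and -0.04. Gli2, a main activator of the pathway, was at 9.68 and 8.59 TPM in lung CD44low cells, listed at 0 in lung CD44high cells and at 0.18 and 0.16 TPM in MFP cells. It entered the test through the lung CD44low libraries alone, so no test is given. Boc, a co-receptor, was at 38.63 and 45.06 TPM in lung CD44low, 23.58 and 11.82 TPM in lung CD44high and 0.77 and 0.27 TPM in MFP cells. Cdon, the related co-receptor, was at 84.12 and 29.01 TPM in lung CD44high against 3.56 and 7.17 TPM in lung CD44low cells, a rise against MFP of 4.87 ± 0.69 (SE, limma adjusted p = 0.000432). In BM cells 3 of the 9 (CD44low) and 2 (CD44high) were called higher than in MFP too. The ligands Shh, Ihh and Dhh stayed at or under 0.11 TPM in every library, and Gli1, a target gene used as a readout of the pathway, at or under 0.35 TPM (genes named after their values were seen). Gas1, a co-receptor as well, was highest in BM CD44low replicate 2, at 26.96 TPM, a library that also stood apart from its replicate for Gli3, Foxc2 and Sap30 and held the highest Foxf1 level of LN and BM cells, 4.36 TPM.

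Signals of lung mesenchyme (14 genes, 9 tested) were called higher in lung CD44low than in MFP cells for 6 (Fgf7, Fgf10, Bmp4, Grem1, Rspo2 and Vegfd) and in lung CD44high cells for 3 (Bmp4, Vegfd and Wnt5a), with medians of 5.83 and 0.37. Of the 6, 4 (Fgf7, Fgf10, Grem1 and Rspo2) entered the test through the lung CD44low libraries alone and had to differ there, so this count and median are descriptions. Vegfd and Wnt5a reached 1 TPM in lung-derived libraries alone, so their calls against MFP are descriptions too. Fgf10, the branching signal that Tbx4 and Tbx5 act through, was at 341.14 and 410.16 TPM in lung CD44low cells, 0.06 and 0.13 TPM in lung CD44high cells and listed at 0 in the other 10 libraries. The groups were separate. Bmp4, a growth factor of distal lung, was at 840.19 and 1055.44 TPM in lung CD44low, 127.86 and 215.67 TPM in lung CD44high and 0.24 and 3.07 TPM in MFP cells, with rises of 8.71 ± 0.48 (SE, limma adjusted p = 3.6e-07) and 6.22 ± 0.48 (SE, limma adjusted p = 8.34e-06). Fgf7 was at 210.0 and 198.11 TPM in lung CD44low cells and at most 0.39 TPM elsewhere. Vegfd, a lymphatic growth factor, was at 130.68 and 142.86 TPM in lung CD44low and 3.02 and 10.18 TPM in lung CD44high cells.

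Between the lung lines 6 of these signals were called lower in CD44high cells and 1, Wnt5a, was called higher, at 49.28 and 31.30 TPM against 2.45 and 3.60 TPM in CD44low cells (log2 difference 3.34 ± 0.27, SE, limma adjusted p = 8.88e-06). Of the 6, Fgf7, Fgf10, Grem1 and Rspo2 entered the test through lung CD44low cells alone and had to differ, so the count is a description. Among all genes tested 8.80% were called lower. Other genes of the list were absent or ran the other way. Lef1, a factor that answers Wnt signals, was listed at 0 in lung CD44low and MFP cells, at 0.58 and 0.05 TPM in lung CD44high cells and at 2.20 to 9.98 TPM in LN and BM cells, and was called lower in lung-derived than in LN and BM cells (log2 difference -2.60 ± 0.18, SE, limma adjusted p = 1.23e-06). Wnt2, which helps to specify the lung, and the retinoic acid enzyme Aldh1a2 were listed at 0 in all 14 libraries (named after their values were seen). In the single-cell libraries Fgf10 had 347 counts in lung CD44low cells, found in 33.6% of them, and 1 count in each of the other libraries. Bmp4 stood in the opposite order to bulk RNA, at 0.500 per 10000 (0.411 to 0.602) in lung CD44low and 1.60 (1.43 to 1.77) in lung CD44high cells, as Foxf2 did. Wnt5a, called higher in lung CD44high cells in bulk RNA, had 56 counts in each lung library, 0.253 per 10000 (0.191 to 0.329) in lung CD44high and 0.252 (0.190 to 0.327) in lung CD44low cells. Lef1 was higher in lung CD44high cells, 0.145 per 10000 (0.099 to 0.204), than in LN CD44high cells, 0.0454 (0.0291 to 0.0675), opposite to bulk RNA. It had 0 counts in lung CD44low cells.

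**Figure D5:**
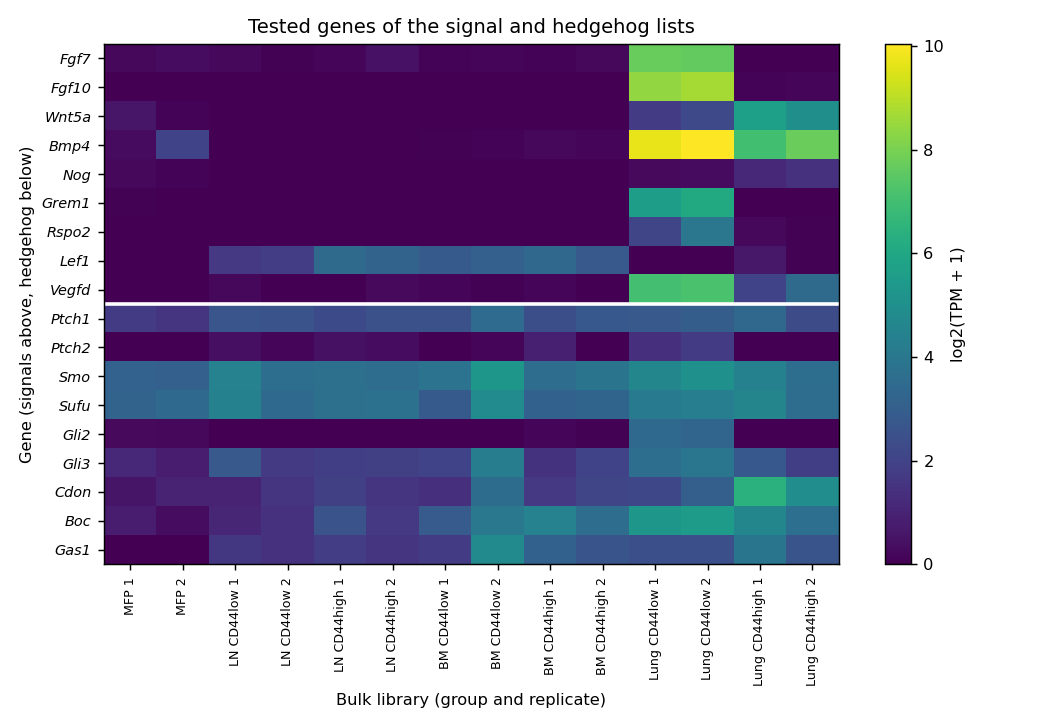
Level as log2(TPM + 1) (color) of the 9 tested signal genes and 9 tested hedgehog genes (rows) in the 14 bulk libraries (columns). Fgf7, Fgf10, Grem1 and Gli2 are bright in lung CD44low cells alone, Bmp4 in both lung-derived groups, and Wnt5a and Cdon most in lung CD44high cells.

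Of the other T-box genes (13, of which 4 tested), Tbx18 alone was called higher, in both lung-derived groups. Of all genes tested, 11.2% and 5.42% were called higher than in MFP in lung CD44low and lung CD44high cells. Tbx18 was at 3.97 and 8.34 TPM in lung CD44low cells, 3.52 and 2.80 TPM in lung CD44high cells and at most 0.03 TPM elsewhere. It entered the test through lung-derived libraries alone, so its calls are a description. Like Foxf2 it was above the other groups in both lung-derived lines, and it had 52 and 45 counts in the lung CD44low and lung CD44high single-cell libraries and 0 in LN CD44high cells.

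Other mesoderm transcription factors (39 genes, 26 tested) were called higher in lung CD44low than in MFP cells for 10 and lower for 1, and called higher in lung CD44high cells for 5. Of all genes tested, 11.2% and 5.42% were called higher in these comparisons. The median log2 difference was 1.86 and 0.85, where the medians over all tested genes were 0.00 and -0.04. Of the 26 tested, 3 entered the test through lung CD44low cells alone and 3 through lung CD44high cells alone. Prrx2 and Gata6, called higher in lung CD44low cells, are among the first 3. Wt1 reached 1 TPM in lung-derived libraries alone, so its calls are a description. Prrx2, a limb and skin mesenchyme homeobox gene, was at 200.61 and 183.49 TPM in lung CD44low cells and at most 3.64 TPM in the other libraries. Its relative Prrx1 was at 64.64 and 78.56 TPM in lung CD44low cells, 9.69 and 9.50 TPM in lung CD44high cells and 0.10 and 0.02 TPM in MFP cells, and it reached 7.73 to 24.13 TPM in LN and BM cells. Wt1, a factor of mesothelium, was at 18.22 and 22.07 TPM in lung CD44low and 21.57 and 22.61 TPM in lung CD44high cells and listed at 0 in the other 10 libraries, so that it too was high in both. Nr2f1 was higher in lung CD44high (54.56 and 33.16 TPM) than in lung CD44low cells (2.69 and 4.65 TPM), a log2 difference of 3.25 ± 0.30 (SE, limma adjusted p = 2.57e-05). In single cells its order was opposite, at 0.662 per 10000 (0.559 to 0.778) in lung CD44low and 0.226 (0.168 to 0.298) in lung CD44high cells. Gata6, named after its values were seen, was at 8.53 and 8.88 TPM in lung CD44low cells and at most 0.04 TPM elsewhere. In the lung CD44low single-cell library Wt1 and Gata6 had 0 counts, as Tcf21 did, while Prrx1 had 879 and Prrx2 657.

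Of 13 genes of lung epithelium, Foxj1 and Abca3 were tested. Nkx2-1, the factor that defines lung epithelium, was listed at 0 in all 14 libraries, and Foxj1, of ciliated cells, was called lower than in MFP in lung-derived, LN and BM cells alike, MFP being where it was at 55.59 and 23.49 TPM. Abca3, a lipid transporter of alveolar cells, was at 30.74 and 28.93 TPM in lung CD44low cells, 33.27 and 21.53 TPM in lung CD44high cells and 13.67 and 12.65 TPM in MFP cells, was also at 28.91 TPM in BM CD44low replicate 2, and was not called. Mesothelial genes (6) summed to 18.4 to 24.8 TPM in lung-derived cells to 309 and 414 TPM in MFP cells and to 3.79 to 18.6 TPM in LN and BM cells, with different genes behind the sums, Wt1 (0 in MFP) in lung-derived cells and Msln (309.11 and 413.5 TPM in MFP, at most 1.87 TPM in lung-derived cells) in MFP cells. The blood and macrophage list (7) summed to 45.8 to 66.4 TPM in lung-derived and 21.9 to 268 TPM in the other libraries. Mammary luminal genes (10) summed to 6.29 and 7.64 TPM in lung CD44low and 230 and 327 TPM in lung CD44high cells, against 167 and 340 TPM in MFP cells. Here too the genes differed, Gata3 being at 187.13 and 305.27 TPM in lung CD44high and 41.39 and 36.58 TPM in MFP cells, and Areg at 0.11 and 0 TPM in lung CD44high and 297.05 and 127.36 TPM in MFP cells.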

How the data were processed

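Bulk RNA of 14 libraries was deposited by the authors as TPM per gene (SMART-seq2 type libraries; STAR, RSEM and mm10 per the labels and methods, with GENCODE annotation of that build). Counts per gene and cell for 3 ddSeq libraries were deposited by the authors after kallisto quantification, as whole numbers with no normalization. The study's methods set a minimum read depth for the bulk libraries, but the depth of each is unknown here, since TPM keeps none. Replicates are separate isolates.

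Bulk values were tested as log2(TPM + 1) with limma 3.58.1 (R 4.3.3; eBayes with trend) on the 15348 genes that reached 1 TPM in 2 or more libraries, 7 group means sharing 1 estimate of the spread. A gene was called where the adjusted p (Benjamini-Hochberg, all genes tested) was under 0.05 and the log2 difference exceeded 2 in size. Understated folds at low levels follow from the pseudocount. The fit was tested on simulated data. Single-cell counts were summed over cells with more than 250 genes and under 10% mt- counts, with exact 95% intervals. No doublet caller was run. A count of 0 was given a limit of 3 counts.

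The members and gene lists were chosen with earlier results of these data known. Named were all members, for each tested member the 3 genes of highest r, the nearest 2 protein-coding genes on each side, and from each other list at most 4 called genes of largest difference in lung-derived cells against MFP; genes outside this rule were named after their values were seen. One gene that the rule names is not reported here. Coordinates are from GENCODE vM21 on GRCm38 (mm10), whose gene identifiers match those of the files. The study's methods name 2 single-cell replicates per line, and 1 library of each was analysed here. Comparisons of the authors' own were not used. Alternatives tried were another pseudocount and filter, median-ratio scaling, a replicate block, other call rules, fits of only the groups compared, each library left out, and other cell filters.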

Additional observations from a re-analysis of the deposited data

Results flagged for a closer look

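The difference between CD44high and CD44low cells differed between lung and the mean of LN and BM for 4 transcription factors, by limma's test of the difference of differences on log2(TPM + 1), with all genes tested as the background (9.59% called). The values were -5.53 for Foxf1, -4.16 for Tbx3, -3.13 for Tbx5 and -4.52 for Tcf21. Tbx5 and Tcf21 passed the filter on low values through the lung CD44low libraries and were listed at 0 in both lung CD44high libraries, so they had to differ, and their values are differences of log2(TPM + 1) that depend on the pseudocount. LN and BM cells held little of any of the 4: Foxf1 was at 0.50 to 4.36 TPM there and Tbx3 and Tbx5 were listed at 0, so that their values equal the lung difference itself. Fibroblast and smooth muscle markers differed between the lung lines in the same direction, and their part was not tested. Both lung CD44low libraries lay above both lung CD44high libraries for each of the 4.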

How the results depend on the processing

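Of 889 values recomputed under other settings, 855 were classed as unchanged, 14 newly passed the threshold and none reversed. The rest, 16 counts of members called and 4 single-cell levels or shares, moved. The 889 mix log2 differences with counts of members and single-cell values, which have no direction or call threshold. A count or single-cell value classed as unchanged need not be identical. The tally has no class for lost passes by adjusted p alone, which are given below. With a pseudocount of 0.1 the members called against MFP numbered 1 in LN CD44low, 2 in LN CD44high, 2 in BM CD44low, 2 in BM CD44high and 3 in lung CD44high cells, and with no fold minimum the counts were the same 1, 2, 2, 2 and 3 (0, 0, 0, 0 and 1 as reported). With that pseudocount 9.32%, 12.2%, 13.4%, 14.3% and 21.4% of all genes were called in these comparisons. That pseudocount also made Tbx4 called, giving 6 members for lung CD44low against MFP. The smaller pseudocount makes a listed 0 count for more. Leaving out 1 library gave 3 to 5 members called for lung CD44low against MFP, 2 to 4 for lung CD44high against lung CD44low and 2 to 4 for the difference of differences, the lowest without either lung CD44low library, when Tbx4, Tbx5 and Tcf21 miss the filter. Passes by adjusted p alone were lost under some settings, the highest adjusted p being 0.372 for Foxf2 between the lung lines (lowest 0.012). Against MFP it was 0.206 for Foxf1 and 0.0671 for Tbx3 in lung CD44high, 0.108, 0.129 and 0.0988 for Foxf2 in LN CD44high, BM CD44low and BM CD44high, and 0.0891 and 0.0698 for Tbx3 in LN CD44low and BM CD44low cells. Median-ratio scaling shifted libraries by -0.259 to 0.277 (log2). The 10 members summed to 1.30 per 10000 in lung CD44low cells and to 1.60 over all barcodes, the cause not tested. Replicate numbers did not pair the samples: over 21 pairs of groups the correlation of deviations ran from -0.194 to 0.168, and with the number as a replicate block the calls for lung CD44low against MFP were again 5. With 2 libraries a group, small differences are not detectable.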
